A study of Danio rerio with 4 samples.

Results

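The genes described here belong to planar cell polarity and noncanonical Wnt signalling in the zebrafish embryo. 9 genes were listed by symbol (prickle1a, prickle1b, vangl2, wnt11, wnt5b, fzd7a, fzd7b, dvl2 and gpc4), and their probes were found through the RefSeq accession that the array design gives each probe. 8 of the 9 had a probe and fzd7b had none, which left 11 probes of 8 genes among 43603 probes on the array, or 8 of 11668 genes with a symbol. All 11 probes passed the filter on dim probes, as did 28321 probes of the array. The genes were chosen with their morphant ratios and wild-type levels already known, so their own values are given as a description, with no p-value, and so is whether a probe passed the threshold of the fit across all probes.

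The study injected zebrafish embryos at the 1-cell stage with 2 to 3 nl of a morpholino called MO-Bad, which the labels describe as giving Bad deficiency, and set them against embryos that the labels call only WT and control. Bad promotes apoptosis and belongs to the BH3-only proteins of the BCL-2 family. RNA of whole embryos was taken at 24 and 12 hours post fertilisation (hpf), with 200 embryos in each group and 1 µg of total RNA labelled for each channel. On each of 4 arrays the MO-Bad RNA carried Cy5 and the WT RNA carried Cy3, with 2 biological replicates an age, so every ratio below is MO-Bad over WT. No dye was swapped and no control morpholino is named, so a gene's dye bias, an effect of injection in general and an effect of Bad cannot be told apart. In RNA of whole embryos, fewer cells of a type and less RNA per cell cannot be told apart either.

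Planar cell polarity signalling orients cells within the plane of a tissue. Wnt ligands bind Frizzled receptors, with the glypican Gpc4 as a co-receptor. Dishevelled, Prickle and Vangl proteins are then spread unevenly within the cell and steer the actin cytoskeleton through small GTPases. In the zebrafish gastrula this pathway drives convergence and extension, the movements that narrow and lengthen the body axis, and loss of wnt5b (pipetail), gpc4 (knypek), vangl2 (trilobite) or wnt11f2 (silberblick) gives a short, broad axis. The symbol wnt11 now belongs to the gene formerly called wnt11r, which acts in early muscle and heart, so the silberblick ligand is described under its own symbol, wnt11f2, among the other genes of the pathway.

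Between 57.9% and 64.9% of probes were well above background in Cy5 and between 55.9% and 61.5% in Cy3, and no spot was saturated. The arrays shared 1 slide. Before normalisation Cy5 was the brighter channel on all 4 arrays, with a median spot signal of 88.5 to 136, against 52 to 76 for Cy3. badb, the gene of that name on the array, had log2 ratios of −0.42 and −0.20 at 24 hpf and −0.30 and −0.20 at 12 hpf. By the limma fit described below it was lower at both ages (adjusted p = 0.016 at 24 hpf and 0.0357 at 12 hpf). A morpholino blocks translation or splicing rather than removing the gene, so this probe does not by itself test the knockdown.

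Among the 11 probes, the largest departure was that of prickle1a at 24 hpf, where 1 of its 2 probes was 2.89-fold lower in MO-Bad embryos than in WT embryos. The brighter probe of its paralogue prickle1b was 1.38-fold lower at that age, wnt11 1.32-fold lower and dvl2 1.17-fold lower. The ligand wnt5b, the co-receptor gpc4, the receptor fzd7a and the membrane protein vangl2 did not pass the threshold at 24 hpf. With a limma fit across all 28321 probes and a threshold of 0.05 on the Benjamini-Hochberg adjusted p, 5 of the 11 probes were lower and 0 higher at 24 hpf, where 21.1% of all probes passed, 10.2% higher and 10.9% lower. At 12 hpf, 2 of the 11 were higher and 0 lower, where 21.5% of all probes passed, 12.2% higher and 9.35% lower. Without replicate 1 of the age concerned, which leaves 1 array at that age, fewer of the 11 passed, as did fewer of all probes. Taking the brightest probe of each gene, the median log2 ratio of the 8 genes was −0.22 at 24 hpf, where that of all 10207 genes was −0.003. At 12 hpf the median of the 8 was 0.002 and that of all genes −0.001. The genes were picked with these ratios in view, so nothing is read from their counts or medians. The plot of log2 ratios by probe shows each array.

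**Figure D1:**
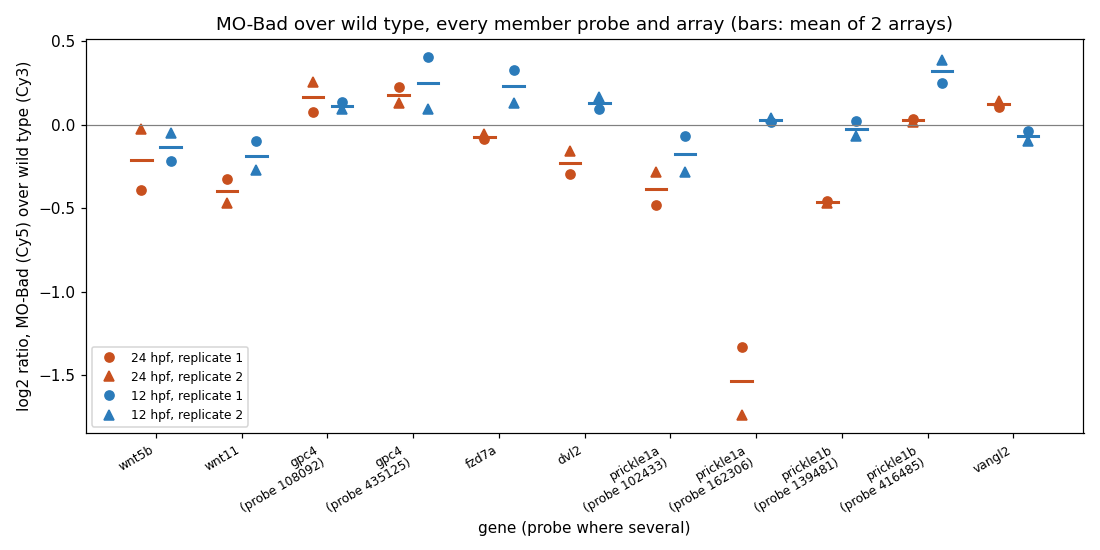
Log2 ratio of MO-Bad over WT (y axis) for each of the 11 probes (x axis) after background correction and loess normalisation, with 24 hpf left of 12 hpf, circles for replicate 1, triangles for replicate 2 and bars for the mean of 2 arrays. The prickle1a probe ending 162306 is at −1.33 and −1.74 at 24 hpf and at 0.01 and 0.04 at 12 hpf.

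wnt5b, the ligand whose loss shortens the zebrafish tail, had log2 ratios of −0.39 and −0.03 at 24 hpf and of −0.22 and −0.05 at 12 hpf. All 4 arrays were below 0, and the 2 ages overlapped. Over the alternatives, however, the 12 hpf value ran from −0.27 to 0.17, so its sign depended on the processing. The mean ratio was −0.21 ± 0.26 at 24 hpf and −0.13 ± 0.12 at 12 hpf (SD, n = 2 each), and neither passed the threshold.

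wnt11 had log2 ratios of −0.32 and −0.47 at 24 hpf and of −0.10 and −0.27 at 12 hpf. It was lower in MO-Bad embryos on all 4 arrays, and both 24 hpf arrays lay below both 12 hpf arrays. Its 12 hpf value ran from −0.27 to 0.10 over the alternatives, so that sign depended on the processing. Its mean was −0.40 ± 0.10 at 24 hpf, past the threshold, and −0.19 ± 0.12 at 12 hpf, not past it (SD, n = 2 each). The call at 24 hpf held under 8 of 14 alternative ways of handling the arrays, over which the value ran from −0.47 to −0.05. It was lost with plain background subtraction, median centring, the scanner software's processed signals, the deposited log ratios and the scanner software's own p. It was also lost without replicate 2, where the value was −0.32. The difference between the ages, −0.21 with an SE of 0.10, did not pass.

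gpc4 encodes a cell-surface heparan sulfate proteoglycan that presents Wnt ligands, and it had 2 probes. The probe ending 108092 had log2 ratios of 0.08 and 0.26 at 24 hpf and 0.14 and 0.09 at 12 hpf. The probe ending 435125 had 0.22 and 0.13 at 24 hpf and 0.41 and 0.10 at 12 hpf. Every one of these 8 values was above 0, and neither probe passed the threshold at either age. Under the alternatives, the probe ending 435125 did pass at 12 hpf with no background subtraction and with robust eBayes in the limma fit. Its background-subtracted signals at 12 hpf were low, at 136 and 162 in MO-Bad and 44 and 102 in WT. The larger ratio, 0.41, was on the array with the WT signal of 44.

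fzd7a, a Frizzled receptor for noncanonical Wnt ligands had log2 ratios of −0.09 and −0.06 at 24 hpf and of 0.33 and 0.13 at 12 hpf. The 2 ages lay on opposite sides of 0. Over the alternatives, however, the 24 hpf value ran from −0.12 to 0.53, so its sign depended on the processing. fzd7a was 1.17-fold higher in MO-Bad embryos at 12 hpf, with a mean of 0.23 ± 0.14, and passed the threshold there. The mean at 24 hpf was −0.07 ± 0.02 (SD, n = 2 each). The 12 hpf call held under 6 of the 14 alternatives and was lost without replicate 1, where the value was 0.13. The difference between the ages, −0.30 with an SE of 0.10, did not pass.

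dvl2 encodes a Dishevelled protein, the cytoplasmic hub that passes the signal on from Frizzled. It had log2 ratios of −0.30 and −0.16 at 24 hpf and of 0.09 and 0.16 at 12 hpf. Both 24 hpf arrays were below 0 and both 12 hpf arrays above it. Its mean of −0.23 ± 0.10 at 24 hpf passed the threshold, its mean of 0.13 ± 0.05 at 12 hpf did not (SD, n = 2 each), and the difference between the ages, −0.36 with an SE of 0.09, did. That difference passed under 4 of 14 alternatives run for it and was lost with any 1 array left out. The call at 24 hpf held under 6 of the 14 alternatives and was lost without either 24 hpf array, at −0.16 without replicate 1 and −0.30 without replicate 2. Centring each array on its median in place of loess gave 0.17, the opposite sign.

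prickle1a encodes a LIM-domain protein that binds Dishevelled and Vangl and is needed for convergence and extension and for the migration of facial motor neurons. Its brighter probe, ending 162306, had log2 ratios of −1.33 and −1.74 at 24 hpf and of 0.01 and 0.04 at 12 hpf. Both 24 hpf arrays were far below 0, and both 12 hpf arrays were at 0. The mean was −1.53 ± 0.29 at 24 hpf and 0.03 ± 0.02 at 12 hpf (SD, n = 2 each). The 24 hpf value passed the threshold, and the difference between the ages, −1.56 with an SE of 0.13, passed as well, and did so under 10 of 14 alternatives run for it.

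The other prickle1a probe, ending 102433, had log2 ratios of −0.48 and −0.28 at 24 hpf and of −0.07 and −0.28 at 12 hpf. All 4 arrays were below 0, though its 12 hpf value ran from −0.28 to 0.08 over the alternatives. Its mean was −0.38 ± 0.14 at 24 hpf, past the threshold, and −0.18 ± 0.15 at 12 hpf, not past it (SD, n = 2 each). Both probes were therefore lower in MO-Bad embryos at 24 hpf, by unequal amounts. The ratio of the brighter probe minus that of the other was −0.85 and −1.45 log2 units at 24 hpf, and 0.08 and 0.33 at 12 hpf. The call of the probe ending 102433 held under 8 of 14 alternatives. It was lost with plain background subtraction, median centring, the scanner software's processed signals, the deposited log ratios and the scanner's own p. It was also lost without replicate 1 of 24 hpf, where its value was −0.28. The transcript each probe matches was not examined, and why the probes differ was not tested.

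The background-subtracted signals behind these ratios show the same drop before any normalisation. For the probe ending 162306, the MO-Bad channel read 541.5 and 571 at 24 hpf, against 751.5 and 925.5 in the WT channel. At 12 hpf the MO-Bad channel read 1848.5 and 1616, against 931 and 1043 in the WT channel. Of all 44 unnormalised log2 ratios of the 11 probes, only the 2 of this probe at 24 hpf, −0.47 and −0.70, were below 0, and the others lay between 0.20 and 1.63. That offset above 0 is the brighter Cy5 channel, which loess normalisation takes out.

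prickle1b, the paralogue of prickle1a, also acts in facial motor neurons and had 2 probes. The brighter one, ending 139481, had log2 ratios of −0.46 and −0.47 at 24 hpf and of 0.02 and −0.07 at 12 hpf. The 24 hpf arrays were nearly equal and clear of the 12 hpf arrays, which lay around 0. The mean was −0.46 ± 0.01 at 24 hpf, past the threshold, and −0.02 ± 0.07 at 12 hpf, not past it (SD, n = 2 each). The difference between the ages, −0.44 with an SE of 0.09, passed. The call at 24 hpf held under 9 of the 14 alternatives, and the difference under 6 of 14 run for it, being lost without replicate 1 of 12 hpf and without either 24 hpf array.

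The dimmer prickle1b probe, ending 416485, had log2 ratios of 0.03 and 0.02 at 24 hpf and of 0.25 and 0.39 at 12 hpf. It was at 0 on both 24 hpf arrays and above 0 on both 12 hpf arrays. Its mean at 12 hpf, 0.32 ± 0.10 (SD, n = 2), passed the threshold and its mean at 24 hpf did not. That 12 hpf call held under 10 of 14 alternatives. It was lost with plain background subtraction, median centring and the scanner software's own p, and without replicate 2, where the value was 0.25. The background-subtracted signals of this probe at 12 hpf were 148 and 254 in MO-Bad and 59.5 and 122 in WT. The 2 probes of prickle1b therefore gave different calls at both ages. On every array the brighter probe had the lower ratio, with a difference of −0.49 and −0.49 log2 units at 24 hpf and of −0.23 and −0.46 at 12 hpf.

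vangl2 encodes the 4-pass membrane protein that recruits Prickle. Its log2 ratios were 0.10 and 0.14 at 24 hpf and −0.04 and −0.10 at 12 hpf. The ages lay on opposite sides of 0, and neither mean nor their difference, 0.19 with an SE of 0.09, passed the threshold. The probe was dim, with background-subtracted signals of 55.5 and 62 in MO-Bad and 25 and 26 in WT at 24 hpf, and 43 and 37.5 in MO-Bad and 25 and 32 in WT at 12 hpf. In the WT channel it was not well above background on replicate 2 of 24 hpf, so a change of vangl2 was not well measurable at this signal.

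Of the 11 probes, 3 had a morphant ratio that differed between the ages by the test of the difference itself, dvl2 and the brighter probes of prickle1a and prickle1b. All 3 were lower at 24 hpf than at 12 hpf, and 8.45% of all probes passed that test, 3.1% higher and 5.35% lower. With any 1 array left out, fewer of the 11 passed it, as did fewer of all probes. The plot of levels by group gives both channels. After normalisation the probe ending 162306 read 8.50 and 8.52 log2 units in MO-Bad embryos, against 9.83 and 10.25 in WT embryos, at 24 hpf. At 12 hpf it read 10.64 and 10.64 in MO-Bad embryos, against 10.62 and 10.60 in WT embryos.

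**Figure D2:**
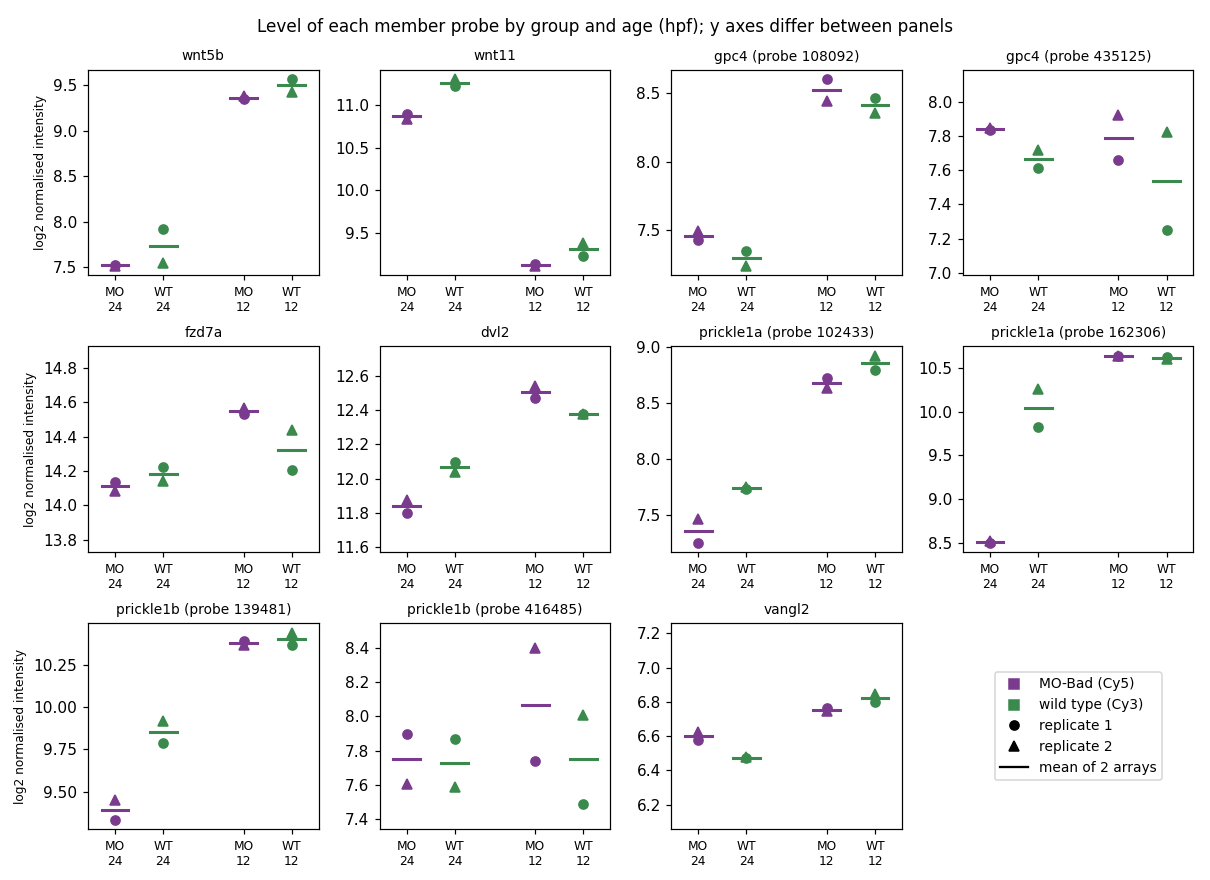
Normalised log2 intensity (y axis, which differs between panels) of the 11 probes, 1 panel each, in MO-Bad (MO, Cy5) and WT (Cy3) embryos at 24 and 12 hpf, with points for the replicates and bars for the mean of 2 arrays. prickle1a (probe 162306) reads 8.50 and 8.52 in MO-Bad embryos at 24 hpf, against 9.83 and 10.25 in WT embryos, and wnt11 stands higher at 24 hpf than at 12 hpf in both groups.

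The WT channel alone gives the course of each gene between the ages. The ligands moved in opposite directions: wnt11 was 3.89-fold higher in WT embryos at 24 hpf than at 12 hpf, and wnt5b was 3.40-fold lower. On the log2 scale wnt11 read 11.23 and 11.31 at 24 hpf and 9.23 and 9.39 at 12 hpf. wnt5b read 7.92 and 7.54 at 24 hpf and 9.57 and 9.43 at 12 hpf. For both ligands the ages were far apart beside the gap between replicates.

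The 2 gpc4 probes did not give the same course in WT embryos. The probe ending 108092 read 7.35 and 7.24 at 24 hpf and 8.47 and 8.35 at 12 hpf, a 2.17-fold lower level at 24 hpf that passed the threshold. The probe ending 435125 read 7.61 and 7.72 at 24 hpf and 7.25 and 7.82 at 12 hpf, where its ages overlapped, and it did not pass. fzd7a, at 14.23 and 14.14 at 24 hpf and 14.21 and 14.44 at 12 hpf, also did not pass.

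The core proteins were lower at 24 hpf in WT embryos wherever they passed. dvl2 was 1.24-fold lower, at 12.10 and 12.04 at 24 hpf against 12.38 and 12.38 at 12 hpf. The prickle1a probes were 1.49-fold (162306) and 2.18-fold (102433) lower, and the brighter prickle1b probe was 1.46-fold lower. vangl2 passed as lower too, but on the dim signal given above its log2 difference ran from −1.21 to −0.33 over the alternatives, and no fold is given. The dimmer prickle1b probe read 7.87 and 7.59 at 24 hpf and 7.49 and 8.01 at 12 hpf and did not pass.

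Counted together, 1 of the 11 probes was higher and 7 were lower at 24 hpf in WT embryos, where 68.8% of all probes passed, 29.3% higher and 39.5% lower. The median log2 difference was −0.45 over the 8 genes and −0.07 over all 10207 genes, whose levels are set by normalisation between arrays. Scaling the Cy3 signal to the 75th percentile of each array instead moved the median of all genes to −0.33. Then 1 higher and 8 lower member probes passed, fzd7a being the added one, where 7635 of all probes were higher and 11964 lower.

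By the likeness rule, the genes closest to the brighter prickle1a probe over the 4 log2 ratios were pdha1b, a subunit of the pyruvate dehydrogenase complex, the keratin krt97, and amdhd2, an enzyme of amino sugar metabolism. pdha1b had log2 ratios of −1.09 and −1.40 at 24 hpf and −0.01 and 0.07 at 12 hpf, a Euclidean distance of 0.41 from prickle1a. krt97 was at a distance of 0.46 and amdhd2 at 0.56, out of 9624 genes. The measure rests on 4 arrays on 1 slide.

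The prickle1a drop at 24 hpf kept its sign and most of its size under each of the 14 alternatives, between −1.74 and −1.27. It lost the threshold under 3 of them, plain background subtraction (−1.69), median centring (−1.27) and the scanner software's processed signals (−1.71). The other prickle1a probe lay between −0.58 and −0.26 over the same alternatives. The plot of alternatives shows that the ranges of the 2 probes did not meet.

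**Figure D3:**
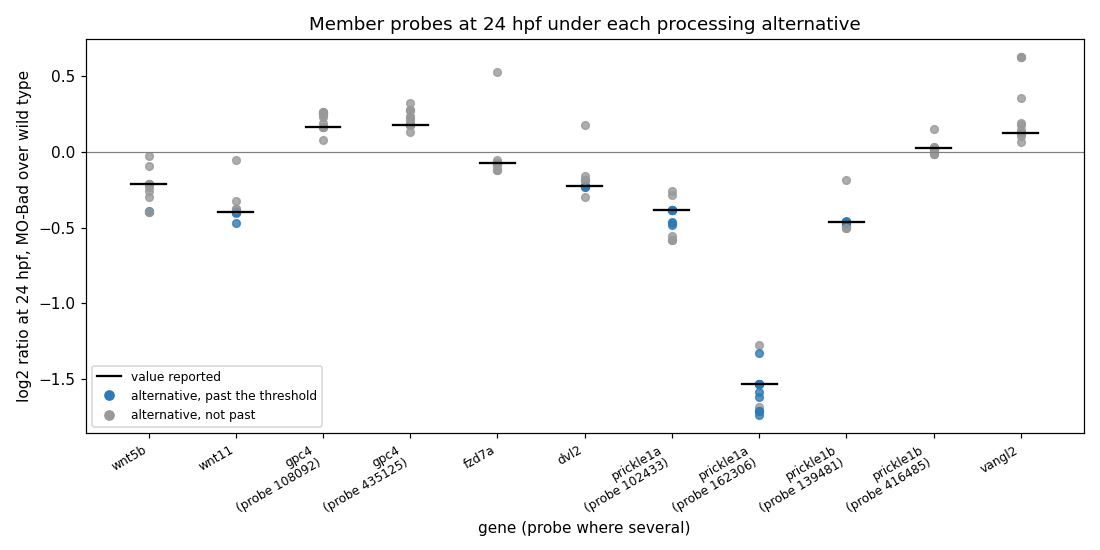
Log2 ratio of MO-Bad over WT at 24 hpf (y axis) of each of the 11 probes (x axis), with a black line for the value reported and a point for each processing alternative, blue where it passed the threshold and grey where it did not. The prickle1a probe ending 162306 lies between −1.74 and −1.27, and dvl2, fzd7a and the prickle1b probe ending 416485 cross 0.

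The rest of the pathway was followed through a list of 71 other genes, of which 44 were on the array and 42 passed the filter. At 24 hpf, 2 of the 42 were higher in MO-Bad embryos and 4 lower, with a median log2 ratio of −0.04. At 12 hpf, 3 were higher and 8 lower, with a median of −0.02. By the brightest probe of each gene, 26.2% of all 10207 genes passed at 24 hpf (12.1% higher and 14.1% lower) and 23.3% at 12 hpf (12.4% higher and 10.9% lower). The difference between the ages passed for 2 genes higher and 2 lower of the 42, against 10.8% of all genes, 3.99% higher and 6.84% lower. In WT embryos 11 of the 42 were higher and 18 lower at 24 hpf, against 74.8% of all genes, 34.6% higher and 40.2% lower. The adjusted p-values given for these genes come from the limma fit, with 2 arrays an age, and the list was written with earlier results of these data known. With plain background subtraction, median centring, the scanner's processed signals or the deposited log ratios, 0 of the 42 passed at 24 hpf. Of all probes, in the same order, only 0, 1, 6 and 35 were higher and 0, 3, 9 and 65 lower. The 0 of 42 therefore says little about this list. The difference between the ages also passed for 0 of the 42, and 0 of all probes, under each of these. At 12 hpf 2 higher and 0 lower passed with plain subtraction, where 723 of all probes were higher and 501 lower. Median centring gave 1 and 0, where 335 were higher and 13 lower. Processed signals and deposited log ratios each gave 2 higher and 3 lower at 12 hpf. Of all probes 1216 were higher and 976 lower with the first, and 1256 and 1019 with the second.

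**Figure D4:**
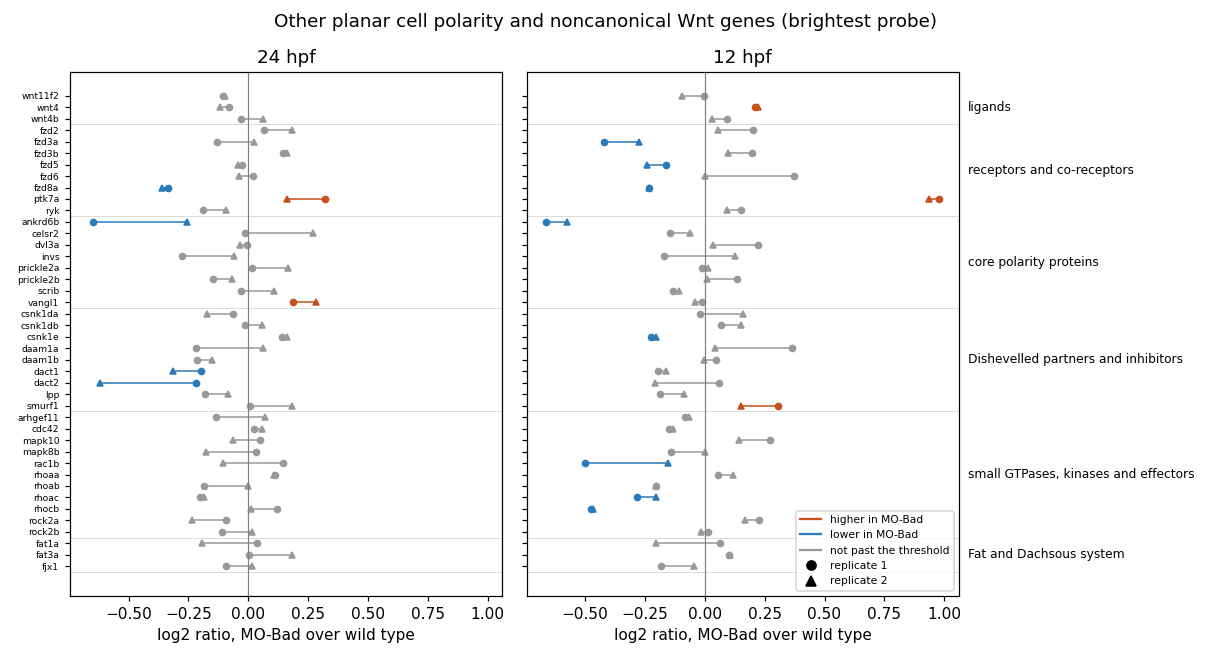
Log2 ratio of MO-Bad over WT (x axis) of the 42 other pathway genes measured (rows, grouped by role), with 24 hpf in the left panel and 12 hpf in the right, circles for replicate 1, triangles for replicate 2, and colour for genes past the threshold. ptk7a stands highest at 12 hpf, at 0.98 and 0.94, and ankrd6b is lower at both ages.

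Of 3 other ligands measured, 1 was higher in MO-Bad embryos at 12 hpf, wnt4 at 0.22 (adjusted p = 0.0348). The rest did not pass at either age. Of all genes 12.1% were higher and 14.1% lower at 24 hpf, and 12.4% higher and 10.9% lower at 12 hpf. Nothing is read from the counts by role, here or below. The silberblick ligand wnt11f2 had a brighter probe with log2 ratios of −0.10 and −0.10 at 24 hpf and −0.01 and −0.09 at 12 hpf, with adjusted p = 0.285 and 0.618. Its second probe had −0.12 and 0.08 at 24 hpf and 0.16 and −0.14 at 12 hpf. In WT embryos wnt11f2 was 3.52-fold lower at 24 hpf than at 12 hpf (adjusted p = 2.17e-05), so wnt11f2 was lower and wnt11 higher at the later age. wnt4, which also signals through noncanonical routes, was 3.59-fold higher in WT embryos at 24 hpf (adjusted p = 5.08e-06).

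Of 8 receptors and co-receptors, 1 was higher and 1 lower at 24 hpf. At 12 hpf 1 was higher and 3 lower, against the shares of all genes given above. ptk7a, a transmembrane pseudokinase needed for planar polarity, had log2 ratios of 0.32 and 0.16 at 24 hpf and 0.98 and 0.94 at 12 hpf. It was 1.18-fold higher in MO-Bad embryos at 24 hpf (adjusted p = 0.0311) and 1.94-fold higher at 12 hpf (adjusted p = 5.88e-05). The difference between the ages was −0.72 with an SE of 0.09 (adjusted p = 0.00375). fzd8a was lower at both ages, by 1.27-fold at 24 hpf (adjusted p = 0.00474) and 1.18-fold at 12 hpf (adjusted p = 0.0251), and fzd3a was 1.27-fold lower at 12 hpf (adjusted p = 0.00806).

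Of 8 other core polarity proteins, 1 was higher and 1 lower at 24 hpf. At 12 hpf 1 was lower, against the same shares of all genes. ankrd6b, a relative of the fly polarity protein Diego that binds Dishevelled, had log2 ratios of −0.65 and −0.26 at 24 hpf and −0.66 and −0.58 at 12 hpf. It was lower on all 4 arrays, by 1.37-fold at 24 hpf (adjusted p = 0.00776) and 1.54-fold at 12 hpf (adjusted p = 0.00166). vangl1, the relative of vangl2, was 1.18-fold higher at 24 hpf (adjusted p = 0.0297), at a low signal. The genes prickle2a, prickle2b, celsr2, dvl3a, scrib and invs did not pass at either age.

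Of 9 Dishevelled partners and inhibitors, 2 were lower at 24 hpf. At 12 hpf 1 was higher and 1 lower, against the same shares of all genes. Those lower at 24 hpf were dact2 (−0.42, adjusted p = 0.0174) and dact1 (−0.26, adjusted p = 0.0219), whose products bind Dishevelled. The ubiquitin ligase smurf1 was higher at 12 hpf (0.23, adjusted p = 0.0499). csnk1e, a kinase of Dishevelled, had a ratio that was higher at 24 hpf than at 12 hpf, by 0.37 with an SE of 0.09 (adjusted p = 0.0342). In WT embryos dact2 was 4.21-fold lower at 24 hpf (adjusted p = 2.59e-05), while the formin gene daam1a was 3.09-fold lower (adjusted p = 2.64e-05) and daam1b 2.66-fold higher (adjusted p = 4.63e-05).

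Of 11 small GTPases, kinases and effectors, 0 passed at 24 hpf by limma, where 2 had an unadjusted p under 0.05. At 12 hpf 3 were lower, against the same shares of all genes. Those 3 were rhocb, listed under its earlier symbol rhoad (−0.47, adjusted p = 0.00119), rac1b (−0.33, adjusted p = 0.0327) and rhoac (−0.25, adjusted p = 0.0221). The difference between the ages passed for 1 of the 11 in each direction, and the higher one was rhocb, at 0.54 (adjusted p = 0.00973). In WT embryos lpp, whose product binds Scribble and which is counted among the Dishevelled partners, was 3.57-fold higher at 24 hpf (adjusted p = 7.76e-06). Of the Fat and Dachsous system 3 genes were measured and 0 passed in MO-Bad embryos at either age by limma, nor did any have an unadjusted p under 0.05, while fat3a, a giant cadherin, was 5.79-fold lower in WT embryos at 24 hpf (adjusted p = 1.71e-06).

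Neighbouring gene groups are given because the polarity genes share tissues with them. Of 25 canonical Wnt genes, 10 were lower in MO-Bad embryos at 24 hpf and 0 higher, where 14.1% of all genes were lower and 12.1% higher, with cdx4 at −0.68 (adjusted p = 0.000501), sp5l at −0.39 (adjusted p = 0.00291) and ccnd1 at −0.32 (adjusted p = 0.0222). Of 18 genes of gastrulation movement outside the Wnt pathway, 5 were lower and 0 higher at 24 hpf, against the same shares of all genes. Those included the fibronectin gene fn1b at −1.05 (adjusted p = 8.56e-05), N-cadherin cdh2 at −0.55 (adjusted p = 0.000619) and the hyaluronan synthase has2 at −0.47 (adjusted p = 0.00956). At 12 hpf, 3 canonical genes were higher and 2 lower, and 5 gastrulation genes were higher and 2 lower, where 12.4% of all genes were higher and 10.9% lower. cdh2 was lower at 12 hpf too, at −0.74 (adjusted p = 0.000137), and its difference between the ages, 0.19, did not pass.

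Tailbud and presomitic mesoderm, where several of these polarity genes are active, had a list written with earlier results of these data known. It gave the most calls of the lists at 24 hpf. Of its 25 genes measured, 18 were lower and 0 higher in MO-Bad embryos at 24 hpf (median −0.41), and 0 were lower and 10 higher at 12 hpf (median 0.14). Of all genes 14.1% were lower and 12.1% higher at 24 hpf, and 10.9% lower and 12.4% higher at 12 hpf. The summed normalised intensity of the list was 57010 and 57900 in MO-Bad embryos against 76100 and 80530 in WT embryos at 24 hpf. At 12 hpf it was 259800 and 261400 in MO-Bad embryos against 215100 and 219500 in WT embryos. Such a sum of unlogged values weighs bright genes most, such as ved, with a mean WT log2 level of 15.35 at 12 hpf. All 25 were well above background in both channels on every array. The list shares wnt8a and cdx4 with the canonical Wnt list, and its part in the prickle1a, prickle1b, dvl2 and wnt11 values was not tested.

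Markers of the tissues a whole embryo holds were present, with 22 of 24 genes on the array measured. At 24 hpf, 5 were higher and 7 lower in MO-Bad embryos, and at 12 hpf 8 were higher and 2 lower, where 26.2% of all genes passed at 24 hpf and 23.3% at 12 hpf. The muscle genes mylpfa and ckma and the embryonic globin hbae3 were higher in WT embryos at 24 hpf than at 12 hpf by 8.88, 6.53 and 5.18 log2 units.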

How the data were processed

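MO-Bad (Cy5) and WT (Cy3) RNA was hybridised to 4 two-colour Agilent arrays, 2 an age. The deposited scanner files hold spot intensity per channel, made with Agilent Feature Extraction 10.5.1.1 per the submitters' processing notes and the file headers. They also hold the log10 ratio of red over green and its p-value for each spot, per the file headers. The deposited value table equals those log10 ratios, with a largest difference of 0 over 45220 spots a column. The build of the probe mapping is older than the reference table, so no coordinates are printed.

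Median spot and background intensities were corrected by normexp with an offset of 50, which shrinks the ratios of dim probes, and normalised by loess (limma 3.58.1, R 4.3.3). Control spots (1417 an array) and 2 to 9 outlier spots an array had weight 0. Spots of a probe were averaged. A probe entered the fit if either channel stood well above background on both arrays of 1 age. The log2 ratios of all 4 arrays entered 1 limma fit with a mean per age. WT levels came from Aquantile-normalised Cy3. p-values were adjusted over 28321 probes by Benjamini-Hochberg, two-sided. The fit had 2 residual degrees of freedom, so the spread is largely that of all probes. The replicates are labelled biological replicates, and their number limits the precision.

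Symbols came from RefSeq accessions, with 16770 of 19210 such probes named. Every member probe is reported. Of the other pathway list, up to 8 genes a comparison past the threshold with the largest change are named, and wnt11f2 always; of each further list up to 3. The text prints values for some of the genes that the rule names, and 1 gene of the pathway list is not reported here. The likeness rule takes the 3 named genes with the smallest Euclidean distance over the 4 ratios. Members and lists were chosen with earlier results of these data known. Alternatives were the background correction, the normalisation, the deposited log ratios, the filter on dim probes, robust eBayes, the mean of a gene's probes, the scanner software's own p, a replicate block and leaving out each array. The filter, robust eBayes and leaving out an array of the other age cannot change the mean ratio at an age, only its p. Counts of the alternatives under which a call held include these. The fits were also run on simulated data with independent errors and far fewer changed probes than were called here. Those data held no dye bias of single genes, so the run does not test for it.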

Additional observations from a re-analysis of the deposited data

Results flagged for a closer look

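For 3 probes the ratio of MO-Bad over WT differed between the ages by the test of the difference (24 minus 12 hpf, limma, all 28321 probes). The difference was −1.56 log2 units for the brighter prickle1a probe, −0.44 for the brighter prickle1b probe and −0.36 for dvl2. In each case both 24 hpf arrays lay below both 12 hpf arrays. Of all 28321 probes 28.8% did so, and for 26.8% both 24 hpf arrays lay above. The genes were chosen with these ratios known, and what sets the difference was not tested. Both other probes of the prickle genes also had a negative difference, −0.21 for prickle1a and −0.29 for prickle1b, without passing the threshold. The median difference over all probes was −0.006, so a negative sign alone says little. The other prickle1b probe had a mean ratio of 0.32 at 12 hpf and 0.02 at 24 hpf. It did not repeat the drop of the brighter probe at 24 hpf.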

How the results depend on the processing

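All prickle1a values at 24 hpf, for both probes, stayed below 0 under every alternative run, some of which could not change a mean ratio. The counts of calls depended on the processing, and the cause was not tested. At 24 hpf the 5974 probes and 5 member probes called became 3874 and 4 with a normexp offset of 16. They became 0 and 0 with plain background subtraction, 4 and 0 with median centring, and 15 and 0 with the scanner's processed signals. The deposited log ratios gave 100 and 1, and the scanner software's own p gave 355 and 1. At 12 hpf 6103 probes and 2 member probes were called. With the smaller offset 2865 probes were higher and 2280 lower, and 1 member probe passed. The other alternatives, in the same order, gave 1224 and 0, 348 and 0, 2192 and 1, 2275 and 1, and 488 and 0. For the difference between the ages the 2394 probes and 3 member probes became 826 and 1 with the smaller offset, and 0 and 0 with plain subtraction, median centring, processed signals and deposited log ratios. At an unadjusted p under 0.05 limma still gave 7383 probes and 7 member probes for plain subtraction at 24 hpf, 2 member probes for median centring and 7 for processed signals at that age, and 5531, 865, 5960 and 6049 probes for the difference under those 4. Leaving out 1 array of the age concerned gave 2416 to 2621 probes and 3 to 4 member probes at 24 hpf (3 without replicate 1), 2385 to 4059 probes and 1 to 2 member probes at 12 hpf (1 without replicate 1), and 1168 to 2213 probes and 1 to 2 member probes for the difference. Leaving out an array of the other age gave up to 6769 probes at 24 hpf and 6271 at 12 hpf. Median centring reversed dvl2 at 24 hpf, to 0.17, and moved the median ratio over all genes to 0.25 (24 hpf) and 0.28 (12 hpf). The share of calls that were higher was 48.3% at 24 hpf and 56.6% at 12 hpf, against 25% and 96.3% with median centring, and 35% with the deposited log ratios and 32.4% by the scanner's p at 24 hpf. WT changes between the ages gave 15887 to 19857 calls over all alternatives. The replicate numbers are not said to mark a shared clutch or day, and same-numbered arrays did not deviate together (correlation −0.04 for ratios and −0.14 for WT levels). With the replicate block the difference between the ages had 2440 calls, 3 of them member probes, and WT 18546 calls, 8 of them member probes. Signal limits vangl2 most, and 2 arrays an age limit all values.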
